A study of Mus musculus with 51 samples.

Results

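The parental balance of H3K4me3 was compared between matDKO/CAST and B6/CAST at all autosomal peaks of the extra-embryonic ectoderm (ExE), the trophoblast tissue that lies next to the epiblast. The allelic table for ExE H3K4me3 listed 40468 autosomal peaks, and 23533 of them held at least 20 reads in 1 of the 12 allele columns of the 3 ExE crosses and were tested. The comparison used 4 of the 51 libraries of the series, 2 for each cross. All embryos were F1 hybrids at embryonic day 6.5, named with the mother first, and each library was made from the ExE of a pool of 8 embryos. In B6/CAST a wild-type C57BL6/Babr (B6) female was mated with a CAST/EiJ (CAST) male. In matDKO/CAST the father was again CAST, and the mother carried floxed Dnmt3a and Dnmt3b with a Zp3-cre transgene, whose promoter is active in the growing oocyte, so that the egg lacked both de novo DNA methyltransferases. These embryos inherited a deleted copy of each gene from the mother and a functional copy from the father, and the mothers were mostly B6 with some alleles of the 129 strain. The reciprocal wild-type cross CAST/B6 (2 libraries) did not enter the comparison and served, beside B6/CAST, to find the biases that follow the parent. Chromatin was taken from pools, so a change in the share of cells that carry the mark and a change in the mark within each cell cannot be told apart.

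H3K4me3 is deposited at active and CpG-rich promoters and is kept away from methylated DNA. In the growing oocyte a set of promoters inside transcribed genes becomes methylated. At imprinted loci this maternal methylation is protected after fertilization, so that only the paternal promoter carries H3K4me3. Several of these promoters, such as those of Kcnq1ot1 and Airn, make long noncoding RNAs that silence neighbouring protein-coding genes on the paternal chromosome, and those genes are then active from the maternal copy. A few genes in the trophoblast lineage are paternally expressed without such methylation, and others follow methylation acquired in sperm.

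The hexamer TGCCGC, which the zinc-finger protein ZFP57 binds when it is methylated, was searched on both strands of GRCm38 in every tested peak. A window of 300 bases with at least 3 matches was present in 11 of the 19 peaks that were paternal in both wild-type crosses and shifted toward the maternal allele in matDKO/CAST (57.9%). It was present in 3.43% of all tested peaks and in 5.39% of tested peaks at a start site. Among the other 168 peaks that shifted toward the maternal allele 10 held such a window (5.95%), and among the 25 peaks that were paternal in both wild-type crosses and did not shift 1 held it (4%). The 19 peaks were longer, with a median of 8500 bp against 5500 bp for tested start-site peaks, so these shares are a description of letters and not of binding. The window with the most matches is given for 5 of the 19 peaks, and for a paternal peak that did not pass the test (Gab1) as a contrast. Capitals mark TGCCGC or its reverse complement, and all sequences are the plus strand of GRCm38. Peg13 is chr15:72809775-72810074, in an exon of this noncoding RNA inside the gene Trappc9. Snrpn is chr7:60004332-60004631, within Snrpn and Snurf and outside their annotated exons. Kcnq1ot1 is chr7:143295558-143295857, in the Kcnq1ot1 exon and within the gene Kcnq1. Peg3 is chr7:6729440-6729739, inside the gene and outside its exons. Airn is chr17:12741748-12742047, within Airn and Igf2r and outside their exons. Gab1 is chr8:80852501-80852800, inside the gene.
Peg13: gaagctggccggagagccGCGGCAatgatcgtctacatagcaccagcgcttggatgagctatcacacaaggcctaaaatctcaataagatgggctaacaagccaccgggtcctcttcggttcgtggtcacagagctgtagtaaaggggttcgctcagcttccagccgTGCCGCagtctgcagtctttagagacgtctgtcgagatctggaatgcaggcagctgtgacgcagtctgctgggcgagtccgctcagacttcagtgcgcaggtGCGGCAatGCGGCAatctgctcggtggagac
Snrpn: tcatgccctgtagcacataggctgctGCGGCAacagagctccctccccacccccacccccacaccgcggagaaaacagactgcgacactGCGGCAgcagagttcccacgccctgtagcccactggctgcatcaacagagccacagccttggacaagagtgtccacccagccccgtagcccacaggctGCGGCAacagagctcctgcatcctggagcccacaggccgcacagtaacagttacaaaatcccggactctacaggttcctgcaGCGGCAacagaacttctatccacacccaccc
Kcnq1ot1: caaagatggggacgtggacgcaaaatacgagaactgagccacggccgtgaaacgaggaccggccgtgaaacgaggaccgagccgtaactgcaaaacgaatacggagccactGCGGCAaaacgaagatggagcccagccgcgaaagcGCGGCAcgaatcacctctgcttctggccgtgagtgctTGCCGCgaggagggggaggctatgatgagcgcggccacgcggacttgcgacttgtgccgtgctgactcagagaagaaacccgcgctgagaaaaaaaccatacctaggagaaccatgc
Peg3: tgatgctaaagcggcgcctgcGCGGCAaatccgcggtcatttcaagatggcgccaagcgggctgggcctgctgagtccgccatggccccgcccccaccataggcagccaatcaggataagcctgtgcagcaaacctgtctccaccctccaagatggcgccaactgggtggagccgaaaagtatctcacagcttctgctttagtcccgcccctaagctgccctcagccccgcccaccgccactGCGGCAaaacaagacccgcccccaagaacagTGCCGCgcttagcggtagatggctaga
Airn: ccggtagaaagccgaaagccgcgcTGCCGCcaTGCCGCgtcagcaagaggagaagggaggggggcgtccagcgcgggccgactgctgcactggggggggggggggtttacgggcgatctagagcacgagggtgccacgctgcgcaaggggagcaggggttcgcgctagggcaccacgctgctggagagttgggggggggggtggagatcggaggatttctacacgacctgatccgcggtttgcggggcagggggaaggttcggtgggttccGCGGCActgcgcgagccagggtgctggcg
Gab1: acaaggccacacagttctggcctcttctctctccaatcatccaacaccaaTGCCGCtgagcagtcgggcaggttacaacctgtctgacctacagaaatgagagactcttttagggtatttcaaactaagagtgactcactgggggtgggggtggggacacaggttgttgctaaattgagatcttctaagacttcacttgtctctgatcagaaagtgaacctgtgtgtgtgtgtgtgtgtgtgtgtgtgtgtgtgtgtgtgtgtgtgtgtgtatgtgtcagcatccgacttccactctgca
These windows held 4, 4, 3, 3 and 3 matches in the first 5 peaks and 1 match at Gab1.

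The B6/CAST libraries held 6821523 and 4713508 reads assigned to a parent in autosomal peaks, the CAST/B6 libraries 4611413 and 4250174, and the matDKO/CAST libraries (replicates 2 and 3) 3863258 and 2700834. The maternal share of these reads came to 50.9 and 50.8% in B6/CAST and to 49.2 and 49.4% in CAST/B6. In matDKO/CAST it was 52.9% (95% Wilson interval 52.9 to 53.0) and 51.1% (51.1 to 51.2), where the intervals cover counting error only. Both matDKO/CAST libraries lay above both B6/CAST libraries, by 1.17 percentage points on average (exact permutation test, two-sided, p = 0.333, the smallest that 2 against 2 libraries can give). On chromosome 2 the maternal share was 50.6 and 50.5% in B6/CAST against 54.0 and 52.2% in matDKO/CAST, the widest gap of the 19 autosomes. Without matDKO/CAST replicate 2 the excess was 0.28 points, and without replicate 3 it was 2.07 points. Size factors set for each allele column took this excess out of the test, and the median difference over all tested peaks was then 0.01 on the log2 scale. Size factors set for each chromosome gave 200 called peaks in place of 206. Replicates differed more in matDKO/CAST than in the wild type, with a chi-square per degree of freedom over peaks of 3.62 against 1.71 in B6/CAST. H3K4me3 summed over the promoters of 12 ExE marker genes was 268 to 351 RPKM in matDKO/CAST, 296 to 344 in B6/CAST and 228 to 321 in epiblast libraries. The sums of 9 epiblast markers (86.0 to 137 RPKM in matDKO/CAST, 133 to 136 in B6/CAST) and 10 visceral endoderm markers (130 to 140 and 131 to 159 RPKM) overlapped between the crosses. Blood and endothelial markers had sums that did not overlap, from 6.26 to 6.88 RPKM for B6/CAST against 5.53 to 6.01 RPKM for matDKO/CAST, with 4 of 7 under 1 RPKM in every ExE library, and the part of this in the results was not tested. Decidual markers summed to 70.6 to 87.2 RPKM for B6/CAST and 72.4 to 76.5 for matDKO/CAST, with 2 of 10 under 1 RPKM.

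The main shift of matDKO/CAST was toward the maternal allele. At each peak the difference was log2 paternal over maternal H3K4me3 in matDKO/CAST minus that in B6/CAST, so that a negative value is a shift toward the maternal allele. At an adjusted p below 0.05 (quasi-likelihood F test of edgeR) it passed at 206 of the 23533 peaks (0.875%), at 187 toward the maternal allele (0.795%) and at 19 toward the paternal allele (0.0807%). An unadjusted p below 0.05 was seen at 989 peaks. The library as a block, which pairs the allele columns of a library, gave 480 peaks, 415 toward the maternal and 65 toward the paternal allele. Without B6/CAST replicate 1 or 2 the count was 53 or 55, and without matDKO/CAST replicate 2 or 3 it was 198 or 220. All 206 peaks kept their direction in each of these fits, which was close to given, as they were chosen for a large difference in these libraries. Each library was 1 pool. The p-values rest on the spread between the 2 pools of a cross for each allele, shared in part over all peaks. Both alleles of a pool were taken as independent, except in the block fit.

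**Figure D1:**
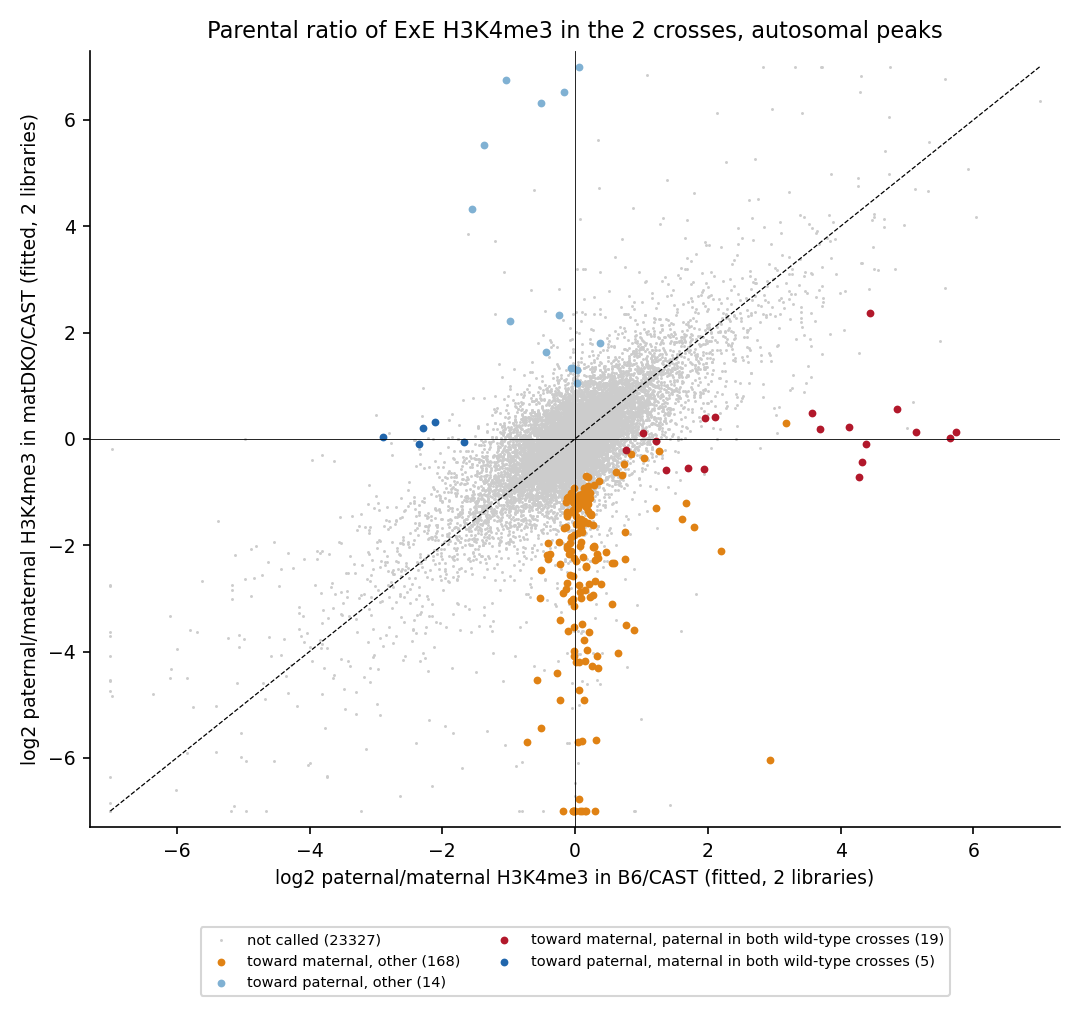
Fitted log2 paternal/maternal H3K4me3 of each tested autosomal ExE peak in B6/CAST (horizontal) and matDKO/CAST (vertical), 2 libraries each, with values beyond 7 drawn at the edge. The 206 called peaks are coloured by group, and 187 of them lie below the diagonal, which means a shift toward the maternal allele.

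Called peaks lay mostly at gene starts and on a few chromosomes. Of the 206, 185 overlapped an annotated start site (89.8%), against 58.3% of all tested peaks. The call share was 1.35% at start sites, 0.144% in exons, 0.165% in introns and 0.278% between genes. Chromosome 2 held 60 peaks toward the maternal and 2 toward the paternal allele (3.47% of its 1785 tested peaks), chromosome 7 held 39 and 8 (2.91%), chromosome 15 held 20 and 1 (2.05%) and chromosome 3 held 18 and 3 (1.86%). Chromosome 8 had no call among 1302 peaks. In the separate CAST/B6 libraries 5.85% of tested peaks had an allele bias, which in 1 cross can follow the parent or the strain. Of these 770 were paternal, and 21 of the 770 shifted toward the maternal allele (2.73%). The share was 2.31% of the 607 peaks maternal in CAST/B6 and 0.686% of the 22156 peaks with no bias there. Shifts toward the paternal allele were seen at 7 of the 607 maternal peaks (1.15%), 4 of the 770 paternal peaks and 8 of the 22156 others (0.0361%).

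At promoters with only paternal H3K4me3 in the wild type, the maternal allele gained the mark in matDKO/CAST. The Kcnq1ot1 peak (chromosome 7, 143284501 to 143297500, GRCm38) lies over the promoter of the noncoding RNA that silences the Kcnq1 cluster. It held 17 and 11 maternal reads against 557 and 398 paternal reads in B6/CAST, 13 and 7 against 408 and 394 in CAST/B6, and 288 and 254 against 323 and 236 in matDKO/CAST. The maternal reads of matDKO/CAST were far above those of every wild-type library. The difference was -4.99 ± 0.27 (SE; 95% interval -5.57 to -4.42; edgeR adjusted p 7.66e-09), with a maternal allele change of 5.04 and a paternal allele change of 0.05 on the log2 scale. Total H3K4me3 from all reads, whether or not assigned to a parent, was 7.22 and 5.89 RPKM in B6/CAST and 10.3 and 12.4 RPKM in matDKO/CAST.

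Peg13 (chromosome 15, 72806501 to 72812000), a noncoding RNA inside Trappc9, held 9 and 5 maternal against 428 and 263 paternal reads in B6/CAST, 5 and 3 against 265 and 204 in CAST/B6, and 206 and 167 against 188 and 164 in matDKO/CAST. The alleles were thus near even only in matDKO/CAST, and the difference was -5.60 ± 0.32 (SE; edgeR adjusted p 7.66e-09). Snrpn (chromosome 7, 60001501 to 60007000) encodes a protein of the splicing machinery and starts at the imprinting centre of the Prader-Willi region. Its peak held 5 and 8 maternal against 360 and 315 paternal reads in B6/CAST, 4 and 4 against 383 and 338 in CAST/B6, and 199 and 154 against 174 and 181 in matDKO/CAST. The difference was -5.59 ± 0.39 (SE; edgeR adjusted p 1.66e-07), and no wild-type library held more than 8 maternal reads. Peg3, a zinc-finger gene that shares its start region with Usp29 (chromosome 7, 6726001 to 6733500), had 41 and 15 maternal against 537 and 403 paternal reads in B6/CAST, 6 and 1 against 447 and 432 in CAST/B6, and 307 and 188 against 326 and 208 in matDKO/CAST. The maternal allele rose by 3.89 on the log2 scale, and the difference was -3.90 ± 0.25 (SE; edgeR adjusted p 3.25e-08). Airn (chromosome 17, 12737001 to 12745500), the noncoding RNA that runs antisense to Igf2r, had 23 and 16 maternal against 305 and 184 paternal reads in B6/CAST, 16 and 9 against 171 and 187 in CAST/B6, and 165 and 117 against 164 and 131 in matDKO/CAST. Its difference was -3.49 ± 0.25 (SE; edgeR adjusted p 2.39e-07).

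The same pattern was seen at single-gene promoters. Mest (chromosome 6, 30732001 to 30741000), which encodes a hydrolase-fold protein, held 14 and 6 maternal against 329 and 233 paternal reads in B6/CAST, 5 and 7 against 182 and 151 in CAST/B6, and 106 and 124 against 156 and 162 in matDKO/CAST. Its difference was -4.27 ± 0.43 (SE; edgeR adjusted p 8.41e-06). Plagl1 (chromosome 10, 13089501 to 13092500), a zinc-finger transcription factor, held 2 and 4 maternal against 76 and 45 paternal reads in B6/CAST, 0 and 1 against 49 and 47 in CAST/B6, and 48 and 41 against 37 and 25 in matDKO/CAST, where the maternal allele was the higher one in each library. The Platr12 peak at Gpr1, the gene of a chemerin receptor, went from 11 and 8 maternal against 137 and 84 paternal reads in B6/CAST to 60 and 57 against 88 and 66 in matDKO/CAST, a difference of -3.06 ± 0.38 (SE; edgeR adjusted p 0.000101).

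At 2 of the 19 peaks the paternal allele fell as well. Impact (chromosome 18), a regulator of translation, held 11 and 7 maternal against 227 and 141 paternal reads in B6/CAST, compared with 38 and 18 against 31 and 17 in matDKO/CAST. Its maternal allele rose by 2.36 and its paternal allele fell by 2.11 on the log2 scale, while total H3K4me3 rose from 4.92 and 3.58 to 9.23 and 9.23 RPKM. Inpp5f (chromosome 7, 128687001 to 128691500), an inositol phosphatase gene with an internal imprinted start, held 3 and 7 maternal against 104 and 87 paternal reads in B6/CAST, beside 15 and 14 against 12 and 5 in matDKO/CAST, a difference of -4.93 ± 0.66 (SE; edgeR adjusted p 0.000301). At both peaks fewer reads could be assigned to a parent in matDKO/CAST although the total was not lower.

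Other paternal peaks had smaller differences. A peak between genes near Errfi1, an inhibitor of EGF receptor signalling (chromosome 4, 150869501 to 150881500, named here after its values were seen), held 83 and 49 maternal against 246 and 168 paternal reads in B6/CAST, 26 and 11 against 186 and 192 in CAST/B6, and 222 and 171 against 143 and 108 in matDKO/CAST. The excess thus changed sides, with a difference of -2.24 ± 0.22 (SE; edgeR adjusted p 6.17e-06). The peak over the retrogene Mcts2 within H13 had 117 and 77 maternal against 291 and 192 paternal reads in B6/CAST, compared with 199 and 119 against 124 and 74 in matDKO/CAST (difference -1.93 ± 0.21, SE). Peg10, a retrotransposon-derived gene required for the placenta, with its neighbour Sgce, went from 58 and 38 maternal against 221 and 140 paternal reads in B6/CAST to 97 and 68 against 132 and 72 (difference -1.55 ± 0.26, SE). The broad peaks of Nespas at Gnas and of Zrsr1 within Commd1 had the smaller differences of -1.23 ± 0.24 and -0.90 ± 0.17 (SE; edgeR adjusted p 0.0101 and 0.00917).

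Slc38a4 (chromosome 15, 97046501 to 97062000), an amino acid transporter of the placenta, gained maternal H3K4me3 and stayed paternal. It held 27 and 19 maternal against 618 and 358 paternal reads in B6/CAST, 32 and 15 against 380 and 282 in CAST/B6, and 53 and 67 against 330 and 258 in matDKO/CAST. The maternal allele rose by 2.15 on the log2 scale (edgeR adjusted p 6.82e-05), and the difference was -2.04 ± 0.35 (SE; edgeR adjusted p 0.00321). Zfp64 (chromosome 2, 168951001 to 168961500), a zinc-finger gene on the list of genes imprinted without a known germline mark, went from 278 and 209 maternal against 518 and 291 paternal reads in B6/CAST to 278 and 193 against 222 and 156 in matDKO/CAST. Its difference was -0.96 ± 0.19 (SE; edgeR adjusted p 0.0138).

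A paternal excess passed its own test at 6.28% of tested peaks in B6/CAST and 3.27% in CAST/B6, and 44 peaks passed in both, of which 19 shifted toward the maternal allele. B6/CAST helped to choose these 44 peaks, so their counts are a description. At the 19 the median paternal share lay at 92.5% in B6/CAST, at 93.4% in CAST/B6, and at 50.2% in matDKO/CAST. The maternal allele passed its own test upward at all 19, against 1.34% of all tested peaks, with a median rise of 2.36 on the log2 scale and a median paternal change of -0.01. The total signal, centred on the median of all tested peaks, was above 0 at 19 of 19 with a median log2 change of 0.67. Over all 44 the maternal allele rose at 25, the difference was below 0 at 34, and its median was -0.97. With the library block 23 of the 44 passed toward the maternal allele, beside 415 of all 23533 peaks. Of the 19, 10 were called without B6/CAST replicate 1 and 12 without replicate 2, and all 19 without either matDKO/CAST replicate. On the list of 29 genes with maternal germline methylation at the promoter, 27 genes had a tested peak, in 25 distinct peaks. Of these, 15 passed toward the maternal and 1 toward the paternal allele, beside 0.795% and 0.0807% of all tested peaks. The 1 was Igf2r, a gene that the Airn RNA silences on the paternal chromosome. Its peak was mainly maternal in the wild type, so the name of the list does not describe it. The median difference of the 25 was -1.55.

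**Figure D2:**
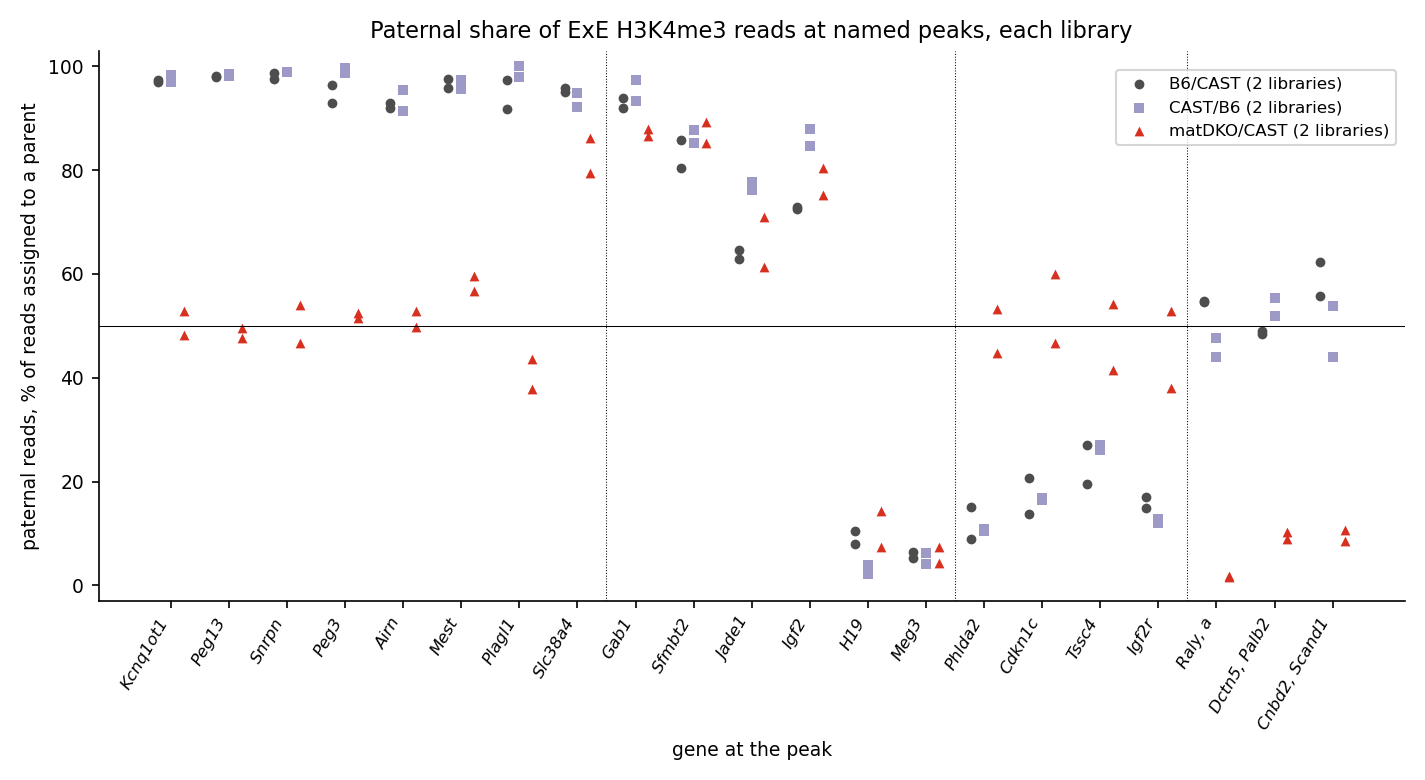
Paternal reads as a percentage of all reads assigned to a parent, for each of the 6 ExE H3K4me3 libraries at named peaks, with a line at 50%. Peaks from Kcnq1ot1 to Plagl1 moved from above 90% in the wild type to between 37.9 and 59.5% in matDKO/CAST, the Slc38a4 peak stayed at 79.4% or above, the next 6 peaks stayed on their side, the following 4 rose to between 38.1 and 60%, and the last 3 fell from near even to between 1.63 and 10.7%.

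H3K4me3 was lost from the maternal allele at genes that the Kcnq1ot1 and Airn RNAs silence on the paternal chromosome. Phlda2 (chromosome 7, 143499501 to 143507500), which limits placental growth, held 253 and 151 maternal against 25 and 27 paternal reads in B6/CAST, 149 and 136 against 18 and 16 in CAST/B6, and 21 and 14 against 17 and 16 in matDKO/CAST. The maternal excess of every wild-type library was gone in both matDKO/CAST libraries. The difference was 2.91 ± 0.44 (SE; edgeR adjusted p 0.00111), the maternal allele fell by 2.76 on the log2 scale, and total H3K4me3 went from 5.60 and 4.65 to 1.11 and 1.41 RPKM. Cdkn1c (chromosome 7, 143458001 to 143471000), the gene of a cyclin-dependent kinase inhibitor, held 145 and 73 maternal against 23 and 19 paternal reads in B6/CAST, 59 and 71 against 12 and 14 in CAST/B6, and 16 and 6 against 14 and 9 in matDKO/CAST (difference 2.48 ± 0.53, SE; edgeR adjusted p 0.0264). Tssc4 (chromosome 7, 143067001 to 143071500) held 354 and 274 maternal against 86 and 102 paternal reads in B6/CAST, 272 and 272 against 101 and 96 in CAST/B6, and 72 and 39 against 51 and 46 in matDKO/CAST (difference 1.61 ± 0.33, SE; edgeR adjusted p 0.0186). Of the 11 tested peaks from Tssc4 to Phlda2, these 3 passed toward the paternal allele and Kcnq1ot1 toward the maternal allele. Igf2r (chromosome 17, 12765001 to 12771000), the receptor that clears IGF2, held 137 and 83 maternal against 24 and 17 paternal reads in B6/CAST, 89 and 73 against 13 and 10 in CAST/B6, and 16 and 13 against 18 and 8 in matDKO/CAST. Its difference was 2.30 ± 0.48 (SE; edgeR adjusted p 0.0202), and its total went from 7.67 and 6 to 2.24 and 2.99 RPKM.

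The fifth peak of this kind differed in the allele that moved. A peak between genes near Gipc2, which encodes a PDZ-domain protein (chromosome 3, 152082501 to 152085500, named after its values were seen), held 50 and 44 maternal against 11 and 10 paternal reads in B6/CAST, 14 and 10 against 3 and 1 in CAST/B6, and 38 and 22 against 47 and 23 in matDKO/CAST. Here the paternal allele rose by 2.51 on the log2 scale, as at 0.552% of all tested peaks, and the maternal allele changed by 0.08. The list of 24 genes of both clusters had 21 with a tested peak, in 19 distinct peaks, of which 3 passed toward the paternal and 0 toward the maternal allele by edgeR (0.0807% and 0.795% of all tested peaks), with a median difference of 0.90. The library block gave 7 toward the paternal allele, among 65 of all 23533 peaks, and 0 toward the maternal. The maternal allele on its own fell at 12 of the 19, against 6.5% of all tested peaks, and rose at 0. Cd81, a tetraspanin gene, held 401 and 262 maternal against 66 and 74 paternal reads in B6/CAST, beside 82 and 48 against 20 and 21 in matDKO/CAST. Both of its alleles fell, the maternal by 1.6 and the paternal by 0.96 on the log2 scale, and a maternal excess remained. Dhcr7, which lies at the edge of the Kcnq1ot1 cluster and encodes an enzyme of cholesterol synthesis, had a difference of 0.23 (95% interval -0.19 to 0.65), and Pde10a, a phosphodiesterase gene, of 0.39 (-0.18 to 0.95).

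A maternal excess passed at 7.13% of tested peaks in B6/CAST and 2.58% in CAST/B6. Of the 30 peaks that were maternal in both, chosen with B6/CAST as above, the difference was above 0 at 27 and the maternal allele fell at 22. The main fit called 5 of the 30 toward the paternal allele. With the library block 11 of the 30 passed in this direction, all 5 among them, beside 65 of all 23533 peaks. The 5 called peaks had a median total change of -1.35 on the log2 scale and a median paternal share of 17.2% in B6/CAST and 13.4% in CAST/B6, against 49.0% in matDKO/CAST. These 5 calls depended on single libraries: 0 remained without B6/CAST replicate 1, 1 without replicate 2, 2 without matDKO/CAST replicate 2 and 3 without replicate 3, all in the same direction.

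Further peaks with a parental bias in the wild type did not pass the test. A peak in an intron of Gab1, an adaptor of receptor tyrosine kinase signalling (chromosome 8, 80852501 to 80861000), held 34 and 15 maternal against 394 and 231 paternal reads in B6/CAST, 16 and 6 against 221 and 219 in CAST/B6, and 34 and 27 against 246 and 173 in matDKO/CAST. The difference was -0.82 with a 95% interval of -1.47 to -0.16 (edgeR adjusted p 0.767), and the maternal allele on its own rose by 1.07 on the log2 scale (edgeR adjusted p 0.0201). Sfmbt2, a Polycomb-group gene, held 129 and 117 maternal against 774 and 481 paternal reads in B6/CAST, compared with 77 and 42 against 447 and 348 in matDKO/CAST (difference 0.50, interval 0.01 to 0.99). Jade1, a subunit gene of histone acetyltransferase complexes, held 605 and 410 maternal against 1108 and 692 paternal reads in B6/CAST, beside 393 and 159 against 623 and 387 in matDKO/CAST (difference 0.16, interval -0.31 to 0.62). On the list of 7 genes imprinted without a known germline mark, 1 passed toward the maternal allele (Zfp64) and the median was 0.08. Of the 44 paternal peaks, 15 were still called paternal within matDKO/CAST, against 0.982% of all tested peaks. A bias to either parent was called there at 2.97% of tested peaks, and a maternal one at 1.99%.

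Loci with methylation from sperm did not pass the test. H19, a noncoding RNA, held 409 and 255 maternal against 48 and 22 paternal reads in B6/CAST, 246 and 218 against 10 and 5 in CAST/B6, and 223 and 189 against 37 and 15 in matDKO/CAST (difference 0.30, 95% interval -0.44 to 1.03). Meg3, the noncoding RNA of the Dlk1 region, held 569 and 436 maternal against 31 and 30 paternal reads in B6/CAST, compared with 285 and 269 against 23 and 12 in matDKO/CAST (difference 0.09, interval -0.76 to 0.94). Igf2, a growth factor gene, held 159 and 109 maternal against 420 and 294 paternal reads in B6/CAST, beside 68 and 49 against 207 and 202 in matDKO/CAST (difference 0.48, interval -0.03 to 0.98). B6/CAST and matDKO/CAST overlapped in their paternal share at H19 and Meg3, and at H19 both CAST/B6 libraries lay below them. At Igf2 both matDKO/CAST libraries (75.3 and 80.5% paternal) lay between the B6/CAST (72.5 and 73.0%) and the CAST/B6 libraries (87.9 and 84.6%). Over the list of 10 such genes, 7 had a tested peak, in 6 distinct peaks, with a median difference of 0.05, and 0 passed by edgeR, also with the library block.

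The larger number of calls lay outside these loci. Of the 187 peaks that shifted toward the maternal allele, 168 were not paternal in both wild-type crosses, and 157 of the 168 were at a start site. With 20 reads required in a wild-type library 162 of the 168 were tested, and the other 6 had entered through matDKO/CAST alone. Of the 168, 42 were called without B6/CAST replicate 1, 41 without B6/CAST replicate 2, 124 without matDKO/CAST replicate 2 and 145 without matDKO/CAST replicate 3, and all 168 kept their direction in each of these fits. Their median paternal share lay at 50.6% in B6/CAST, at 49.9% in CAST/B6, and at 18.9% in matDKO/CAST. Between the crosses the maternal allele changed at 7.84% and the paternal allele at 7.62% of all tested peaks. Over the 168 the paternal allele fell at 129 (against 7.07% of all tested peaks), with a median change of -1.5. The maternal allele rose at 69 and fell at 21, with a median of 0.38 on the log2 scale. The 168 were chosen for a fall of paternal against maternal reads in the same fit, so these counts are a description. The total from all reads was within 0.5 of the median of all tested peaks at 160 of the 168, as at 21664 of all 23533, with a median log2 change of 0.03. The reads assigned to a parent had a median change of -0.26 on the same centred scale. At 11 of the 168 no paternal read was counted in either matDKO/CAST library.

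**Figure D3:**
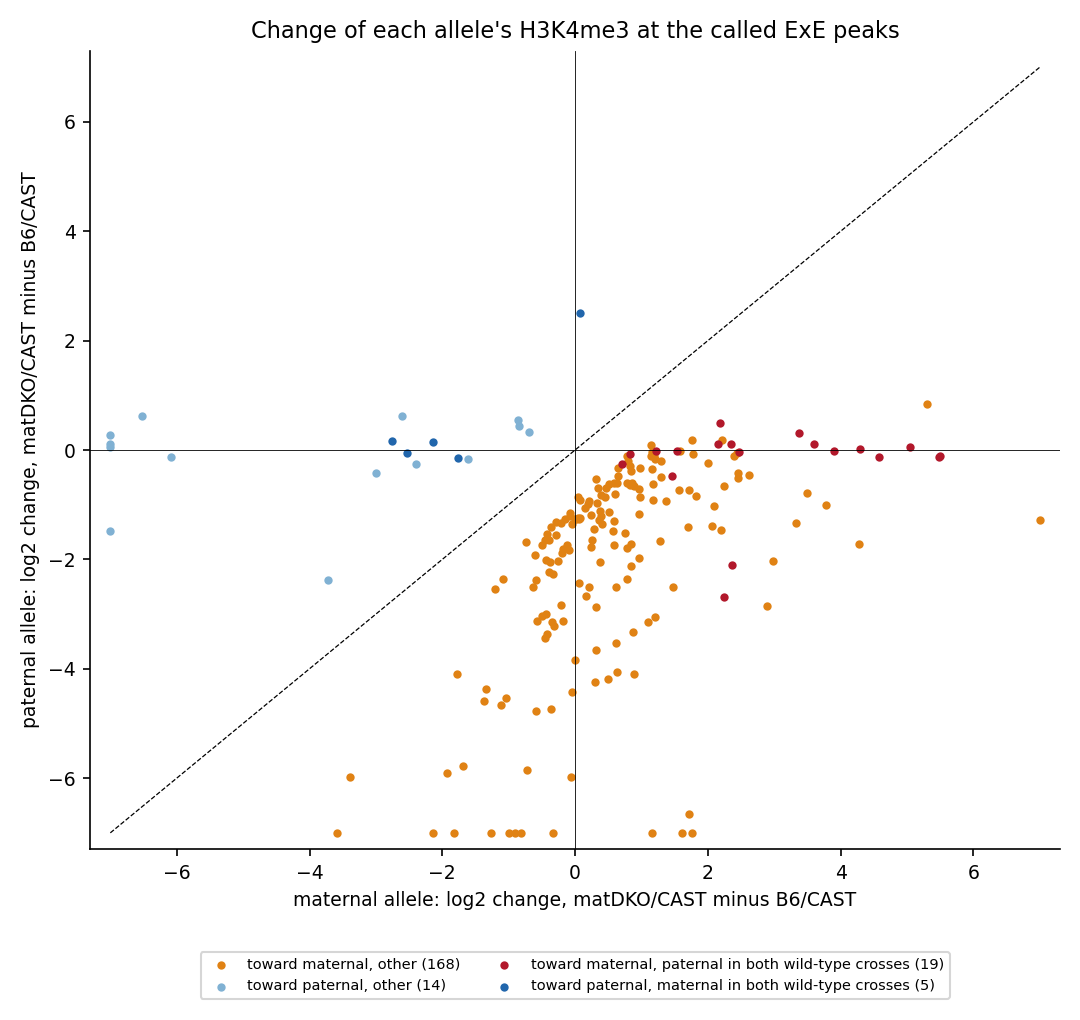
Log2 change of the maternal (horizontal) and the paternal allele (vertical) between matDKO/CAST and B6/CAST at the 206 called peaks, with values beyond 7 drawn at the edge and the line of equal change dashed. The 19 peaks paternal in both wild-type crosses lie to the right of 0, with a paternal fall that passed the test at 2 of them, and the other 168 spread downward, with a paternal fall that passed at 129.

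The start-site peak of Raly, an RNA-binding protein gene, and agouti, which controls coat colour (chromosome 2, 154785501 to 154798000) held 24 and 15 maternal against 29 and 18 paternal reads in B6/CAST, 14 and 11 against 11 and 10 in CAST/B6, and 269 and 181 against 5 and 3 in matDKO/CAST. The maternal allele changed by 4.27 and the paternal by -1.71 on the log2 scale, at a total of 7.74 and 6.73 RPKM in B6/CAST and 6.48 and 7.74 RPKM in matDKO/CAST. Dctn5 and Palb2, which share a start region (chromosome 7, 122130001 to 122136000) and encode a dynactin subunit and a protein of homologous recombination, went from 247 and 188 maternal against 232 and 181 paternal reads in B6/CAST to 457 and 376 against 45 and 43 in matDKO/CAST (difference -3.12 ± 0.25, SE; edgeR adjusted p 5.51e-07).

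Lgr4, a receptor of R-spondins, with Platr8 (chromosome 2, 109912501 to 109920500), held 142 and 99 maternal against 126 and 74 paternal reads in B6/CAST, compared with 115 and 85 against 3 and 3 in matDKO/CAST (difference -4.68 ± 0.41, SE). Scand1 with Cnbd2 (chromosome 2, 156310501 to 156314500) held 81 and 49 maternal against 102 and 81 paternal reads in B6/CAST, beside 200 and 151 against 24 and 14 in matDKO/CAST (difference -3.66 ± 0.30, SE). Odc1, the gene of the first enzyme of polyamine synthesis, held 339 and 237 maternal against 367 and 274 paternal reads in B6/CAST, compared with 148 and 125 against 28 and 11 in matDKO/CAST (difference -2.92). Other peaks had no paternal read left. Pop1 with Rida, where Pop1 encodes a subunit of RNase P, held 104 and 75 maternal against 104 and 69 paternal reads in B6/CAST, beside 152 and 193 against 0 and 0 in matDKO/CAST. With a floor of 3 reads over the group its assigned paternal reads were at least 31.9-fold lower for the depth. Jmjd7, a dioxygenase gene, went from 249 and 179 paternal reads in B6/CAST to 0 and 0 (at least 79.0-fold lower), beside 260 and 188 maternal reads in B6/CAST that became 33 and 27. Cdan1 with Ttbk2 went from 201 and 138 paternal reads in B6/CAST to 0 and 0 (at least 62.6-fold lower), and from 172 and 145 to 55 and 46 maternal reads. These folds are of reads assigned to a parent and not of the total signal. In the run of Jmjd7 and Cdan1 and in that of Pop1, given below, the total changed by -0.05 and 0.01 (log2 medians over tested peaks).

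These peaks were clustered along the chromosomes. Called peaks of 1 direction with gaps below 1 Mb were joined, and at least 3 were required. This gave 15 runs toward the maternal and 2 toward the paternal allele, and the runs held 106 of the 168 peaks. The largest (chromosome 2, 118110001 to 122740500) held 31 called among 111 tested peaks, from Thbs1 and Eif2ak4 through Spint1, Dll4, Itpka, Jmjd7, Cdan1, Sord and Duox1 to Bloc1s6. Over its 111 peaks the median difference was -0.73, the maternal change -0.90 and the paternal change -1.79, and the reads assigned to a parent changed by -1.31 while the total changed by -0.05 (all log2 medians). Another run on chromosome 2 (154785501 to 156441500) held 12 called of 44 tested peaks from Raly to Epb41l1. The start-site peak of Dnmt3b lies on the same chromosome at 153647501 to 153661000. On chromosome 7 a run (18989001 to 19827500) held 11 of 39 tested peaks, among them those of Ercc1, Mark4, Bcam and Bcl3, and another (24132501 to 25257000) 6 of 38 with Zfp235, Zfp114, Zfp109 and Zfp94. Further runs held 5 of 16 peaks on chromosome 11 (58300001 to 59194500, with Zfp692 and Rnf187), 4 of 7 on chromosome 15 (34177001 to 34680500, with Laptm4b, Pop1 and Nipal2) and 7 of 49 on the same chromosome (99697501 to 101249500, with Smarcd1, Atf1 and Acvrl1).

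How the reads of the crosses were assigned differed before the counts were deposited. In matDKO/CAST the authors used no variant at which 129 and CAST have the same base, and reads that could not be assigned were aligned again to 129 and CAST, with those of 129 added to the maternal reads alone. In B6/CAST neither step was used. The part of these steps in the shifted peaks was not tested. Within the epiblast libraries of the same crosses, made by the same steps, the difference was below 0 at 164 of 164 peaks of this set. The Dnmt3b start-site peak itself held 434 and 330 maternal against 454 and 309 paternal reads in B6/CAST, compared with 261 and 222 against 254 and 203 in matDKO/CAST, with a difference of -0.01. At Dnmt3a, 157 and 113 maternal against 118 and 105 paternal reads in B6/CAST became 161 and 132 against 91 and 76, a difference of -0.49 that did not pass (95% interval -1.02 to 0.05). A second start-site peak of Dnmt3a (chromosome 12, 3884501 to 3897000) held 134 and 105 maternal against 148 and 99 paternal reads in B6/CAST, beside 103 and 84 against 36 and 19 in matDKO/CAST. It was among the 168, with a difference of -1.75 ± 0.29 (SE; edgeR adjusted p 0.00234) and a paternal allele that fell by 1.35 on the log2 scale, and was named after its values were seen. Whether these peaks lie in the deleted parts is not given in the sources used here, so they do not check the labels.

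**Figure D4:**
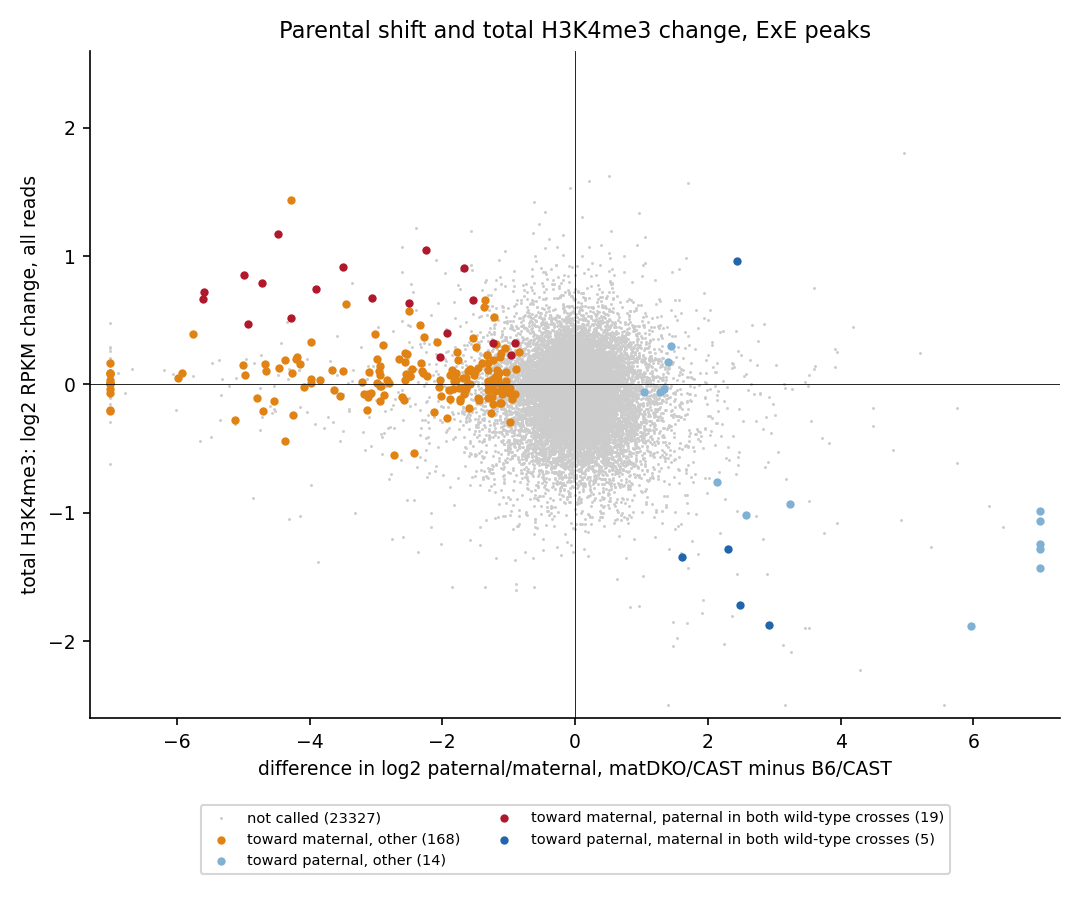
Difference in log2 paternal/maternal H3K4me3 (horizontal) against the log2 change of total H3K4me3 from all reads, centred on the median of all tested peaks (vertical), with values beyond the axes drawn at the edge. The 19 peaks paternal in both wild-type crosses all lie above 0, the 4 maternal peaks that lost the mark lie below, and 160 of the 168 others lie within 0.5 of 0.

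Shifts toward the paternal allele outside imprinted loci were seen at 14 peaks, and the maternal allele fell at all 14. At Gm14226 (chromosome 2, 155017501 to 155025500) 159 and 116 maternal against 155 and 120 paternal reads in B6/CAST became 0 and 0 against 113 and 52 in matDKO/CAST. The assigned maternal reads were at least 53.5-fold lower for the depth, and total H3K4me3 went from 8.54 and 8.08 to 3.47 and 3.09 RPKM. A run on chromosome 7 (89975001 to 90478000) held the peaks of Eed, Picalm, and Tmem126b with Dlg2. Eed, a core subunit of Polycomb repressive complex 2, held 758 and 530 maternal against 691 and 564 paternal reads in B6/CAST, 693 and 613 against 669 and 580 in CAST/B6, and 252 and 213 against 507 and 396 in matDKO/CAST (difference 1.03 ± 0.20, SE; edgeR adjusted p 0.0103). Picalm, a clathrin assembly protein gene, held 339 and 241 maternal against 346 and 193 paternal reads in B6/CAST, compared with 119 and 72 against 235 and 202 in matDKO/CAST (difference 1.41 ± 0.21, SE). Tmem126b with Dlg2 held 306 and 233 against 296 and 234 and then 110 and 70 against 240 and 170 (difference 1.28 ± 0.20, SE). At these 3 peaks the total changed by -0.06 to 0.17 on the log2 scale. Tmem267, Trim34a, Mturn, Zfp932 and a peak between genes on chromosome 7 (18402001 to 18405000) had their higher level on the B6 allele in both wild-type crosses, with 20.3 to 45.5% paternal reads in B6/CAST and 55.7 to 95.1% in CAST/B6. The intronic peak of 2610037D02Rik (chromosome 15, 96209501 to 96220000) was higher on the CAST allele, with 57.3 and 53.3% paternal reads in B6/CAST, 43.6 and 38.3% in CAST/B6, and 75.3 and 78.3% in matDKO/CAST (difference 1.45 ± 0.23, SE; edgeR adjusted p 0.00183). Trim34a, of the B6-biased peaks, held 47 and 32 maternal against 22 and 15 paternal reads in B6/CAST, 2 and 10 against 39 and 22 in CAST/B6, and 0 and 0 against 11 and 14 in matDKO/CAST. Of the 14 calls, 1 remained when either B6/CAST replicate was left out, 10 without matDKO/CAST replicate 2 and 13 without replicate 3.

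Lists of genes outside imprinting were counted with 1 peak a gene, beside 0.875% called over all tested peaks, a share at which lists of this length hold few calls or none. Of 20 regulators of the trophoblast, 18 had a tested peak, 0 passed by edgeR in either direction and the median difference was 0.08. Cdx2, a homeobox regulator of this lineage, held 853 and 561 maternal against 870 and 558 paternal reads in B6/CAST, beside 422 and 315 against 455 and 307 in matDKO/CAST (difference 0.09, 95% interval -0.27 to 0.45). Eomes and Gata3, transcription factors of the same lineage, had differences of 0.03 and 0.07. Id2, an inhibitor of basic helix-loop-helix factors, held 859 and 532 maternal against 718 and 537 paternal reads in B6/CAST, compared with 483 and 344 against 278 and 228 in matDKO/CAST. The difference at its main peak, -0.51, did not pass (edgeR adjusted p 0.576). With the library block 2 peaks of the list passed toward the maternal allele, that of Id2 among them. A smaller peak between genes near Id2 (25083001 to 25085000) passed by edgeR, with 40 and 24 maternal against 23 and 18 paternal reads in B6/CAST, beside 57 and 47 against 3 and 1 in matDKO/CAST. Hand1, a factor of trophoblast giant cells named after its values were seen, had no assigned read in matDKO/CAST replicate 2 and 83 maternal and 0 paternal reads in replicate 3, against 26 and 17 maternal and 24 and 17 paternal reads in B6/CAST, and did not pass.

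Germline genes whose promoters are silenced by DNA methylation gave 12 tested peaks of 30 genes, 0 passed by edgeR, and the median was -0.08. Tdrd1 and Brdt, which act in the male germline, had differences of -0.11 and 0.15. With 1 peak a gene, the 24 genes of chromatin and DNA methylation machinery had 1 call, Eed, and a median of -0.01, beside the second peak of Dnmt3a given above, and Trim28, the corepressor recruited by ZFP57, had a difference of -0.12. Among 20 housekeeping genes 18 had a tested peak and 1 passed. This was Ywhaz, a 14-3-3 protein gene in a run on chromosome 15, with 258 and 214 maternal against 271 and 259 paternal reads in B6/CAST, compared with 226 and 205 against 109 and 91 in matDKO/CAST (difference -1.24 ± 0.27, SE; edgeR adjusted p 0.0274). The library block gave 2 calls toward the maternal allele on this list. Of 29 other maternally expressed imprinted genes 28 had a tested peak and 2 passed, through the peaks of Mcts2 at H13 and Zrsr1 at Commd1, with a median of 0.02. A separate start-site peak of H13 (chromosome 2, 152668501 to 152673000), outside the 1 peak counted for the gene, also passed toward the maternal allele (difference -4.26).

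Other libraries of the same crosses were read at the called peaks. The ExE libraries for H3K27me3 and H3K36me3 shared chromatin pools with those for H3K4me3. All matDKO/CAST libraries, those of epiblast among them, passed through the read assignment given above. They are thus no independent check of the shifted peaks, and the part of that assignment in their values was not tested. In epiblast the comparison of the crosses called 144 of 20666 peaks (0.697%), 132 toward the maternal (0.639%) and 12 toward the paternal allele (0.0581%), and 11 or 58 peaks without epiblast matDKO/CAST replicate 1 or 2. At the 19 imprinted peaks the epiblast difference was below 0 in 19 of 19 and called in 12, and at the other peaks of this direction it was below 0 in 164 of 164 measured and called in 81. Over all tested peaks with an overlapping epiblast peak it was below 0 at 8476 of 17642. At Kcnq1ot1 it was -4.92 and at Raly -6.33. The difference at Phlda2 was 2.91 in ExE and 0.77 in epiblast, where it did not pass, and the contrast between tissues was not tested.

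For H3K27me3, the mark of Polycomb repressive complex 2, the comparison called 148 of 18624 ExE peaks (0.795%), 141 toward the maternal (0.757%) and 7 toward the paternal allele (0.0376%), and 70 or 87 without B6/CAST replicate 1 or 2. Phlda2 and Cdkn1c lie under 1 broad H3K27me3 peak, which held 791 and 689 maternal against 3996 and 3035 paternal reads in B6/CAST, beside 2731 and 1956 against 2600 and 1847 in matDKO/CAST. The paternal excess of H3K27me3 was lost there, with a difference of -2.13 (edgeR adjusted p 2.28e-23), and it was -1.59 over Tssc4. At Nespas the H3K27me3 peak went from 9 and 7 maternal against 65 and 45 paternal reads to 43 and 36 against 25 and 32. Of the 168 other peaks 89 overlapped an H3K27me3 peak, and the difference was below 0 at 78 and called at 17. Over all tested peaks with such an overlap it was below 0 at 5484 of 11362 and called lower at 199. A broad peak that lies under several H3K4me3 peaks is counted for each of them, here and for H3K36me3 below. For H3K36me3, a mark of transcribed gene bodies, the comparison called 43 of 8005 peaks (0.537%), 40 lower (0.5%) and 3 higher (0.0375%), and 16 or 12 without B6/CAST replicate 1 or 2 and 22 without matDKO/CAST replicate 3. It was called lower at Kcnq1ot1 (-2.97), Snrpn (-2.99), Peg10 (-4.00) and Peg3 (-1.17). Over the 16 of the 19 imprinted peaks with an H3K36me3 peak, the difference was below 0 at 10 and the median was -0.04. Of the 168 peaks 103 overlapped an H3K36me3 peak, and the difference was below 0 at 91 and called at 17, against 4829 and 59 of 9942 over all tested peaks.

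**Figure D5:**
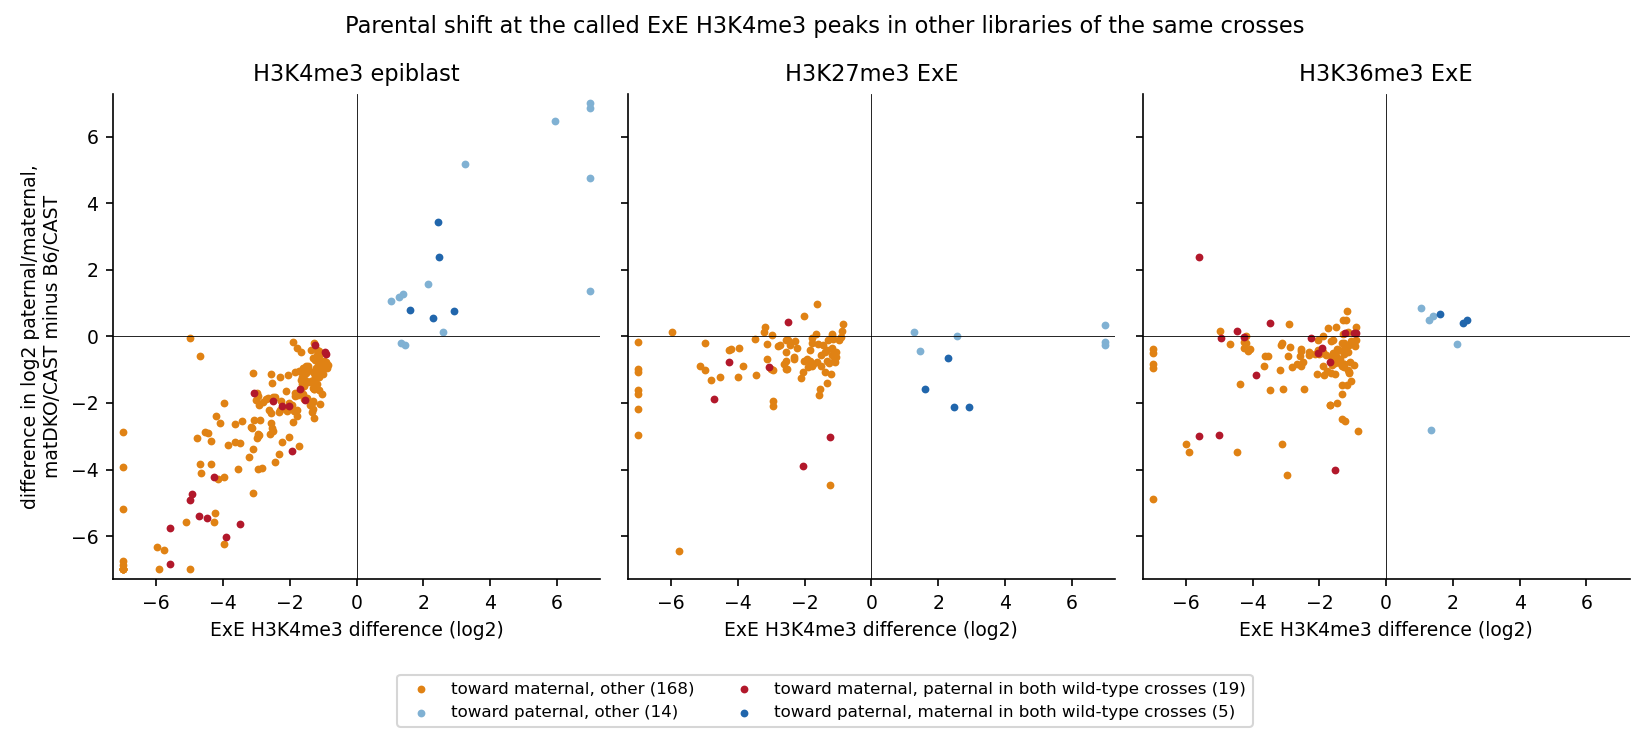
Difference in log2 paternal/maternal between matDKO/CAST and B6/CAST at the called ExE H3K4me3 peaks (horizontal) and at the overlapping peak of epiblast H3K4me3, ExE H3K27me3 and ExE H3K36me3 (vertical), with values beyond 7 drawn at the edge. Peaks that shifted toward the maternal allele in ExE H3K4me3 lie below 0 in epiblast at 183 of 183, and 4 of 4 maternal peaks with H3K27me3 lie below 0 for that mark, of which Phlda2 and Cdkn1c share 1 H3K27me3 peak.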

How the data were processed

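ChIP-seq had been made with a native low-input protocol in which the chromatin of a pool was split among antibodies. Per the study's methods and the submitters' processing notes, the authors trimmed reads with Trim Galore (0.4.4 in the notes, a later version in the methods), aligned them with Bowtie2 (2.3.2) to GRCm38 with B6 and CAST variants masked, and split them by parent with SNPsplit. The authors' peaks came from chromstaR, a hidden Markov model, run on B6/CAST and CAST/B6 and merged, so matDKO/CAST libraries chose no peak. The deposited tables held read counts per allele, library and peak, and the authors' total signal as RPKM in 1 kb windows from all reads. No input was subtracted.

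Autosomal peaks with at least 20 reads in 1 of 12 allele columns were fitted with edgeR 4.0.16 (R 4.3.3; quasi-likelihood F test, Benjamini-Hochberg adjustment) on the counts as deposited, with TMM factors per allele column. The contrast was cross by parent. The SE was the log2 difference over the square root of F. Total signal was compared as log2(RPKM + 0.1). Both allele columns of a library come from 1 pool and deviated together (correlation 0.153 in B6/CAST, 0.391 in matDKO/CAST). The fit with the library as a replicate block is therefore given beside several of the counts. An allele bias in a wild-type cross was called in the same way, and a peak counted as paternal or maternal in both crosses had to pass in each. In tests on simulated data for this contrast over 23533 peaks, 78% of 50 peaks changed by -3, 48% by -1.5, 50% by 1.5 and 92% by 3 (log2) were recovered. The simulated allele columns were drawn independently, unlike those of a library here, so these shares need not hold for these data.

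Named peaks were the 10 with the smallest p in each direction, each list's genes that passed and up to 4 others with the most reads, and runs. Of these, 1 peak is not reported here. Genes were taken within 10000 bp from GENCODE vM21, and sequences from RefSeq GRCm38.p6. The peaks and gene lists were chosen with earlier results of these data known. Alternatives were DESeq2 1.42.0, other size factors and filters, and leaving out each library.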

Additional observations from a re-analysis of the deposited data

How the results depend on the processing

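With 2 libraries a cross, the number of called peaks changed with the setting, and no cause of a changed count was tested. The 206 peaks kept their direction, but they were chosen for a large difference in these same libraries. A kept direction was therefore close to given and is no separate support. The replicate block of both alleles of a library gave 480 ExE H3K4me3 peaks (415 toward the maternal, 65 toward the paternal allele), 2983 peaks biased in matDKO/CAST in place of 699, and 308 epiblast, 254 H3K27me3 and 65 H3K36me3 peaks. An adjusted p below 0.01 left 132 peaks (121 and 11), and at least 20 reads in each of B6/CAST and matDKO/CAST left 12 toward the paternal allele. DESeq2 gave 167 for ExE H3K4me3, and 95 for epiblast, 81 for H3K27me3, 22 for H3K36me3, 1146 for the maternal allele in place of 1844, 1159 for the paternal allele in place of 1794, and 374 for the bias in matDKO/CAST in place of 699. By edgeR without the filter on low counts that bias was called at 1252. Leaving out 1 library gave 53 to 220 peaks in all, 52 to 203 toward the maternal and 1 to 17 toward the paternal allele. The maternal allele count then ran from 796 to 2517, the paternal from 853 to 2484, the bias in matDKO/CAST from 759 to 1206, epiblast from 11 to 219, H3K27me3 from 70 to 124 and H3K36me3 from 12 to 52. Other size factors, a wild-type filter, no filter and a fit of all 3 crosses gave 200 to 254 ExE H3K4me3 peaks. Over the 71 named peaks no alternative reversed the direction of a called peak, while some uncalled values changed sign, 46 values lost their call, 21 and 18 of them without B6/CAST replicate 1 or 2, and Id2 gained one with the block.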
